A study of Mus musculus with 2 samples.

Results

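The proteasome subunit genes were taken as the protein-coding genes of the mouse mm9 annotation whose symbols start with Psma, Psmb, Psmc, Psmd, Psme, Psmf or Psmg. The rule found 50 genes of 22271. Psmb9 and Psmd14 have 2 overlapping gene models each in that annotation, which were merged. By role they are 7 genes of the alpha ring and 7 of the beta ring of the 20S core particle, 3 immune subunits (Psmb8, Psmb9, Psmb10), 2 subunits known from single tissues (Psma8 of testis, Psmb11 of thymus), 17 genes of the 19S cap, 3 of the 11S activator, 2 other regulators of the core (Psme4, Psmf1) and 7 assembly chaperones. The symbol rule also took in Psmc3ip, a cofactor of meiotic recombination that is no proteasome subunit, and Psme2b-ps, a Psme2-like copy that the annotation lists as coding.

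DNase I hypersensitive sites, places where chromatin is open enough for the nuclease to cut, were mapped by DNase-seq in 2 states of a mouse erythroid line of strain 129. G1E cells are male erythroid progenitors without Gata1, a zinc finger factor needed for red cell maturation, and were left untreated. G1E-ER4 cells carry Gata1 again, in a form that estradiol activates, and had been given 10 nM beta-estradiol for 24 h. The labels give both lines the age embryonic day 0, as stem cell derived. Each state is 1 sample with 2 deposited peak lists of 100000 peaks each, and the labels do not say if each list had a culture of its own, so their spread may be technical only. Cell line, restored Gata1 and estradiol differ together and cannot be told apart. With 2 lists against 2, no two-sided exact permutation p can lie below 0.333, so no p-value is given between the states. Read depth is unknown. The erythroid marker genes Klf1, Gata1, Tal1, Epor, Slc4a1, Zfpm1, Tfrc and Ermap each had a promoter peak in all 4 lists, as did 1 of 3 markers each of B cells (Pax5), granulocytes and monocytes (Csf1r) and hepatocytes (Apoa1) and 0 of 3 each of T cells and neurons.

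The proteasome degrades proteins marked with ubiquitin. Its core is a barrel of alpha and beta rings in which Psmb5, Psmb6 and Psmb7 cut peptide bonds. The 19S cap binds the ubiquitin chain, removes it and feeds the unfolded protein into the barrel, while the 11S activator opens the barrel without ubiquitin. Interferon induces Psmb8, Psmb9 and Psmb10, which replace the catalytic subunits and favour peptides for display on class I histocompatibility molecules. Proteasomes also help maturing red cells to clear proteins, and the factor Nfe2l1 raises proteasome genes through antioxidant response elements (AREs) when the proteasome is inhibited.

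Promoters of nearly every proteasome gene were open in both states. A promoter peak is a peak that reaches within 1 kb of an annotated start of the gene. It was present in all 4 lists at 47 of 50 genes (94.0%), against 51.4% of all protein-coding genes, and in at least 1 list at 48 (96.0%), against 72.2%. The exceptions were Psma8, Psmb11 and Psme2b-ps. Psma8, on chromosome 18, had no promoter peak in any list, and the nearest peak lay 22.6 and 22.5 kb from a start in G1E-ER4 lists 1 and 2 and 17.4 kb in each G1E list. Psme2b-ps had none either, with the nearest peak at least 10.0 kb away. Psmb11 had weak promoter peaks in 3 lists and none in G1E list 2, where the nearest peak lay 1402 bp away; its percentiles, explained next, were 3.29 and 39.2 in G1E-ER4 and 36.8 in G1E list 1.

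The place of a promoter peak is given as its percentile by signal within its own list, 100 being the strongest peak, because no scaling between lists is stated. Where several peaks reached a promoter, the strongest was taken. Over the 47 genes with a peak in all 4 lists, the median percentile was 91.4 and 94.3 in lists 1 and 2 of G1E-ER4, and 94.6 and 94.3 in those of G1E. Over all 11450 protein-coding genes with a peak in all 4 lists it was 91.5, 94.6, 93.8 and 93.9. Thus the typical proteasome promoter lay where the typical open promoter did. In the strongest 10% of all peaks stood 27 and 42 of the 47 genes for G1E-ER4 (57.4 and 89.4%), and 42 and 39 for G1E (89.4 and 83.0%), beside 56.2, 77.5, 71.4 and 71.1% of all these genes. G1E-ER4 list 1 stood apart: it gave the lowest of the 4 percentiles at 28 of 47 proteasome genes (59.6%) and at 53.7% of all genes.

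**Figure D1:**
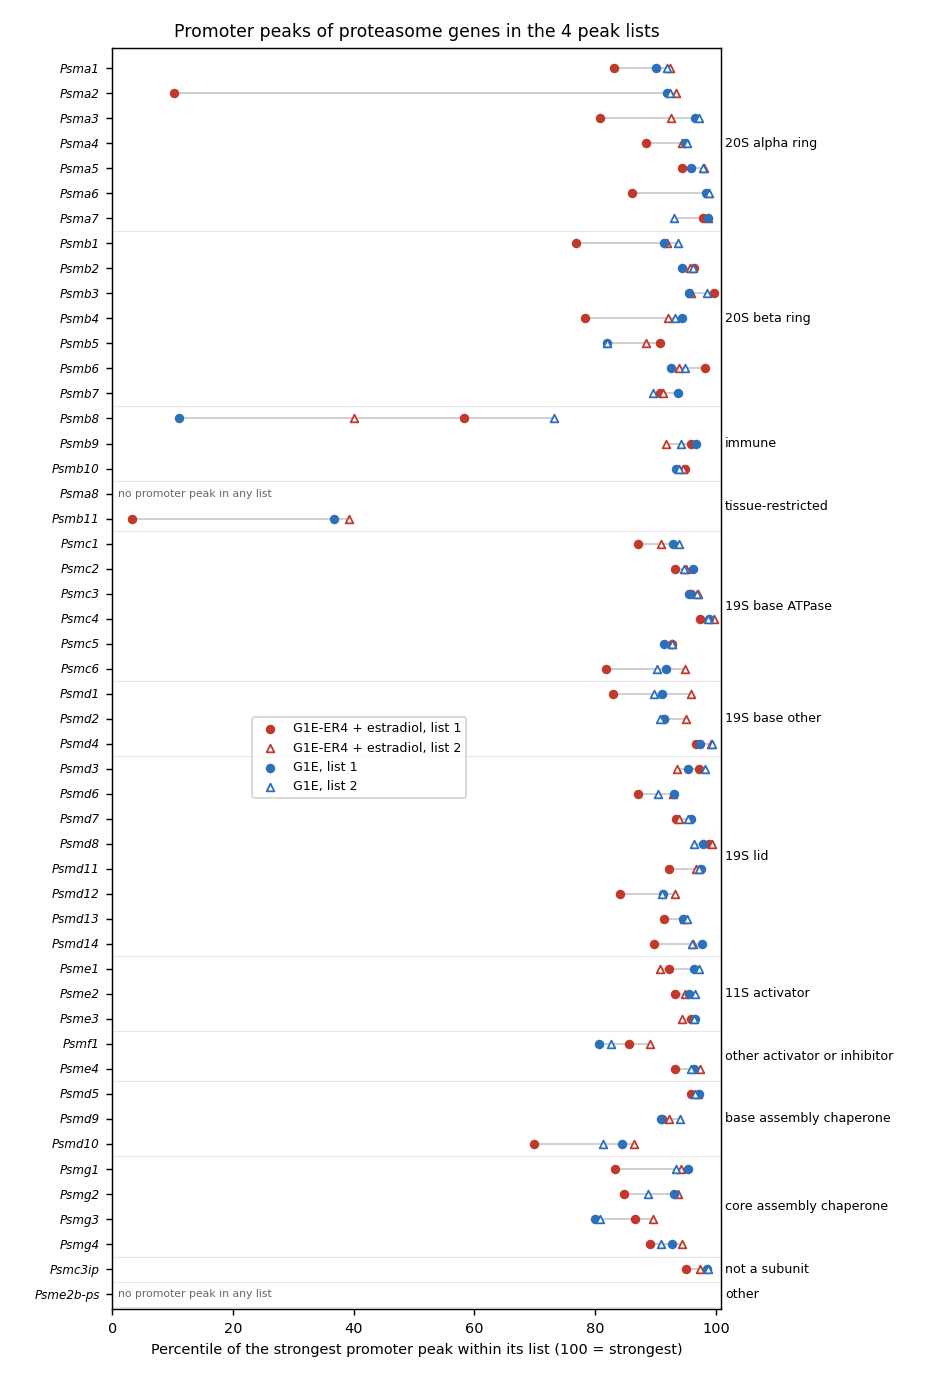
Percentile of the strongest promoter peak (horizontal axis, 100 = strongest in the list) for each of the 50 genes, grouped by role, with G1E-ER4 lists in red, G1E lists in blue, circles for list 1 and triangles for list 2. A grey line joins a gene's lowest and highest list. Most genes lie between 80 and 100, and Psmb8, Psmb11 and the first G1E-ER4 list of Psma2 lie far below.

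In the core particle, the alpha ring genes ranged from Psma7 to Psma2. Psma7 stood at percentiles 97.8 and 98.7 in G1E-ER4, against 98.8 and 93.0 in G1E. Psma2 stood at 93.4 in G1E-ER4 list 2 and at 92.0 and 92.4 in G1E, but at 10.2 in G1E-ER4 list 1, where its peak was 379 bp wide against 1576, 893 and 1177 bp in the other lists. The states therefore overlap at Psma2, and its low mean rests on a single list. Psma4, higher in both G1E lists, stood at 88.5 and 94.3 in G1E-ER4, against 94.9 and 95.2 in G1E, with a log2 ratio of ranks of -0.70 that was -0.19 without G1E-ER4 list 1. Psma6 was also lowest in G1E-ER4 list 1 and overlapped between the states, at 86.1 and 98.7 in G1E-ER4, against 98.4 and 98.9 in G1E. In the beta ring the highest gene was Psmb3, at 99.7 and 95.9 in G1E-ER4, against 95.5 and 98.6 in G1E.

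The 3 catalytic genes did not move alike. Psmb5, which carries the chymotrypsin-like activity, stood at 90.8 and 88.4 in G1E-ER4, against 81.9 and 82.0 in G1E, so that both G1E-ER4 lists lay above both G1E lists by a mean of 7.68 points, the largest difference in percentile toward G1E-ER4 among the 47 genes. In ranks this was 1.75-fold. Psmb6, with caspase-like activity, stood at 98.1 and 93.8 in G1E-ER4, against 92.6 and 94.9 in G1E, and the states overlapped. Psmb7, with trypsin-like activity, overlapped as well, at 90.8 and 91.2 in G1E-ER4, against 93.8 and 89.5 in G1E. Psmb5 was also the lowest of the 7 beta ring genes by its mean over the 4 lists (85.8). The 100 bases before its start on mm9 are shown because the lists of the 2 states did not overlap at this promoter. A match to the ARE core is in capitals (chr14:55236852-55236951, minus strand, 5′ to 3′), and any part of it in the ranks was not tested.
Psmb5: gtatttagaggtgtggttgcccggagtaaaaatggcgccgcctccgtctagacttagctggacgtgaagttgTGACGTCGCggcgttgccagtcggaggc

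The immune subunits were not a closed group. The peaks reaching the Psmb9 and Psmb10 promoters ranked as high as those of the constitutive core, and those of Psmb8 did not. Psmb9 (chr17:34318932-34324709) stood at 95.9 and 91.7 in G1E-ER4, against 96.7 and 94.3 in G1E. Psmb10 (chr8:108459628-108462292) stood at 95.0 and 94.6 in G1E-ER4, against 93.4 and 93.8 in G1E, both G1E-ER4 lists being higher by a small step, 1.23-fold in rank. That call was lost when the summit itself had to lie within 1 kb of a start. Psmb8 (chr17:34334666-34338399) stood at 58.3 and 40.0 in G1E-ER4, against 11 and 73.1 in G1E, the lowest mean of the 47 genes (45.6). Its 4 lists spread over a wider range than the difference between its states, so no difference between states was detectable there.

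The position of the peaks differed among these 3 genes. At Psmb8 the strongest peaks of the lists differed in place: the summit, the base of highest signal, lay 1099 and 859 bp before the nearest start in G1E-ER4, 48 bp before it in G1E list 2 and 1236 bp after it in G1E list 1. G1E-ER4 list 2 also held a weaker peak over the start (percentile 22.2), with its summit 16 bp before it, and the peak of G1E-ER4 list 1 reached 97 bp past the start. Thus 3 of 4 lists had a peak over the annotated Psmb8 start used here. The start of Psmb8 in RefSeq, another annotation, lies 474 bp further in. The G1E-ER4 peaks over the first start ended 97 and 359 bp past it, and only G1E list 2 had a peak over the RefSeq start. At Psmb9 a single peak of 2300 to 3039 bp covered the start in every list, with its summit 325 to 387 bp inside the gene from the most upstream start. The nearest annotated start to that summit was that of Tap1, the divergent neighbour that encodes a peptide transporter of antigen display, in 3 of 4 lists, so the peak cannot be given to either gene alone. At Psmb10 the summit lay 1285 to 1301 bp inside the gene, in an intron, in all 4 lists, and the peak reached back over the start. The bases around the summit of G1E-ER4 list 2 (chr8:108460945-108461045, minus strand, all intron) are shown because no other member had its summit so far inside the gene in every list. Capitals mark matches to the ETS motif CCGGAAG and, once, to the ARE core on the other strand.
Psmb10: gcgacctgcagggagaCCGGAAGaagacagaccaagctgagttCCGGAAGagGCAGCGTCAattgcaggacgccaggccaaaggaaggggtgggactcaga

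**Figure D2:**
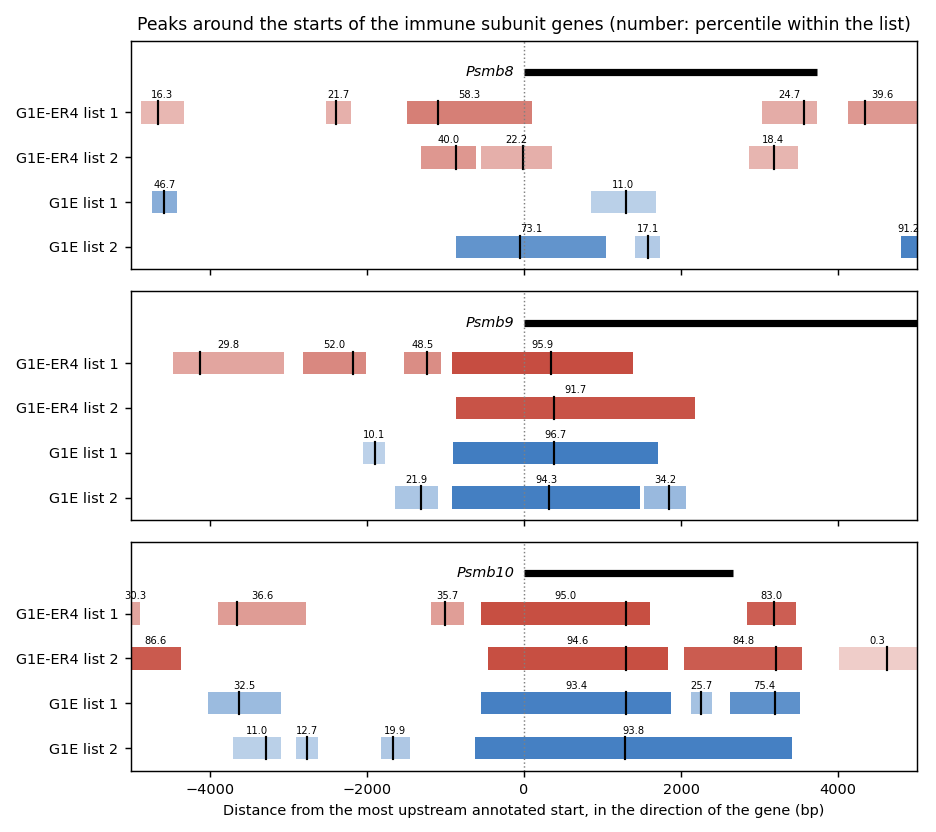
Peaks within 5 kb of the most upstream start of Psmb8, Psmb9 and Psmb10 (horizontal axis: distance in bp, in the direction of the gene; black bar: the gene) in each of the 4 lists, with black ticks at the summits and the percentile above each peak. Psmb9 and Psmb10 have a peak over the start above percentile 91 in every list, while the peaks near the Psmb8 start differ in place and rank.

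In the 19S cap, the base ATPases pull the substrate into the core. Psmc4 had the highest mean of all members (98.6), at 97.3 and 99.6 in G1E-ER4, against 98.9 and 98.6 in G1E. Psmc6 was the lowest ATPase gene, at 81.9 and 94.9 in G1E-ER4, against 91.8 and 90.3 in G1E. Lists of the 2 states overlapped at both. Psmc5 and Psmc1 did not overlap, in opposite directions. Psmc5 stood at 92.70 and 92.72 in G1E-ER4, against 91.36 and 92.68 in G1E, a step of 1.09-fold in rank that is within the gap of the G1E lists. Psmc1 stood at 87.0 and 91.0, against 92.9 and 93.9, and was higher in G1E by 1.65-fold. Among the other base genes Psmd4, a ubiquitin receptor, stood at 96.7 and 99.2 in G1E-ER4, against 97.3 and 99.3 in G1E. Psmd1, a scaffold of the base, stood at 83.0 and 95.9 against 91.0 and 89.8.

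The lid, which holds the deubiquitinase Psmd14, contained the gene with the largest fold in rank toward G1E-ER4 among those without overlap, although in percentile its difference was 2.08 points. Psmd8, a structural lid subunit, stood at 98.9 and 99.4 in G1E-ER4, against 97.8 and 96.3 in G1E. Counted from the strongest peak, its ranks were 1119 and 615 for G1E-ER4, against 2208 and 3692 for G1E, a 3.44-fold difference without overlap. It lies on chromosome 7 (chr7:29959207-29965692), where 35.4% of all genes tested were higher in both G1E-ER4 lists, against 15.2% over all chromosomes, and the part of that imbalance in the value of Psmd8 was not tested. Psmd14 itself overlapped, at 89.8 and 96.2 in G1E-ER4, against 97.7 and 96.1 in G1E, and Psmd12 was the lowest lid gene, at 84.1 and 93.2 against 91.2 and 91.0. Psmd11 and Psmd7 were higher in both G1E lists, by 1.96-fold and 1.45-fold in rank. The first of these rested on G1E-ER4 list 1: the log2 ratio of Psmd11 was -0.97 (G1E over G1E-ER4 ranks) and -0.36 without that list. The bases before the Psmd8 start (chr7:29965693-29965792, minus strand) are given as the promoter with that largest fold in rank, with an SP match (GGGCGG) in capitals.
Psmd8: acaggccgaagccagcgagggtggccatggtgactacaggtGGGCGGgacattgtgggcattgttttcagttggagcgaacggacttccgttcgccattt

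All 3 genes of the 11S activator ranked higher in both G1E lists than in both G1E-ER4 lists. Psme1, the alpha subunit, stood at 92.1 and 90.8 in G1E-ER4, against 96.4 and 97.2 in G1E, which is 2.69-fold in rank. Psme2, the interferon-induced partner of Psme1, stood at 93.3 and 94.8 against 95.5 and 96.5, a log2 ratio of ranks of -0.58. Psme3, a nuclear form of the activator, stood at 95.8 and 94.5 against 96.6 and 96.4, which is 1.38-fold. Psme1 (chr14:56196960-56200366) and Psme2 (chr14:56206278-56209950) are neighbours and so not independent, while Psme3 is on chromosome 11. On chromosome 14, 12.4% of genes tested were higher in both G1E lists, close to the 11.7% over all chromosomes. Psme1 kept a difference of over 2-fold without each list in turn, with log2 ratios of G1E to G1E-ER4 ranks from -1.62 to -1.23. When promoters were ranked only among promoters, Psme3 overlapped between the states. The 100 bases before the Psme1 start nearest to its summits (chr14:56197097-56197196, plus strand) held none of the 10 motifs searched. Outside that stretch Psme1 had an SP match in its promoter window and, like Psme2, an interferon element within 100 bases of its summit.
Psme1: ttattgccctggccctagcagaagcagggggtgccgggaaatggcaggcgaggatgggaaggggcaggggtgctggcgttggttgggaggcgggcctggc

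The other regulators and the chaperones included both high and low genes. Psmf1, which encodes the core-binding regulator PI31, stood at 85.6 and 89.0 in G1E-ER4, against 80.7 and 82.7 in G1E, higher in both G1E-ER4 lists by 1.45-fold in rank. It overlapped when only the most upstream start of the gene was used. Psme4, the nuclear activator PA200, stood at 93.2 and 97.4 against 96.3 and 95.8 and overlapped. Among chaperones of base assembly, Psmd5 stood at 95.9 and 97.1 in G1E-ER4, against 97.1 and 96.5 in G1E. Psmd10, also known as gankyrin and X-linked, was among the 3 lowest of the 47 genes, at 69.8 and 86.4 against 84.4 and 81.2. Among chaperones of core assembly, Psmg4 was the highest by mean, at 89.0 and 94.4 against 92.7 and 91.0. Psmg3 was the lowest, at 86.5 and 89.6 in G1E-ER4, against 80.02 and 80.8 in G1E, so both G1E-ER4 lists were higher, by 1.65-fold in rank.

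Counted over the groups, the median of the genes' mean percentile was 92.5 for the 14 alpha and beta ring genes (range 72.0 to 97.4), 94.6 for the 17 genes of the 19S cap (89.7 to 98.6), 95.0 for the 3 genes of the 11S activator (94.1 to 95.8), 91.6 for the 7 chaperones (80.4 to 96.6) and 94.2 for the 3 immune subunits (45.6 to 94.7). These ranges overlap, except that Psmb8 lay below every gene of the other groups. The cap was the narrowest of the larger groups.

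The states were compared over the 48 proteasome genes with a promoter peak in at least 1 list, a missing peak counting as below every peak of its list. Of these genes, 6 were higher in both G1E-ER4 lists (Psmd8, Psmb5, Psmg3, Psmf1, Psmb10 and Psmc5), which is 12.5%, beside 15.2% of the 16089 genes tested. Another 10 were higher in both G1E lists (Psma3, Psma4, Psmb4, Psmc1, Psmc3ip, Psmd7, Psmd11, Psme1, Psme2 and Psme3), which is 20.8%, beside 11.7%. The first share is near the background and the second above it by a margin that was not tested. With ranks taken among promoters only, 8 (beside 16.3% of all genes) and 11 (beside 11.2%) did not overlap. The counts depend on each list, since 3 lists overlap less readily than 4. Without G1E-ER4 list 1, 20 were higher in G1E-ER4 (41.7%, beside 53% of all genes) and 12 in G1E (25%, beside 18.9%). Without G1E-ER4 list 2 they were 9 (18.8%, beside 28.7%) and 30 (62.5%, beside 48.4%). Without G1E list 1 they were 10 (20.8%, beside 25%) and 17 (35.4%, beside 25%), and without G1E list 2 12 (25%, beside 22.3%) and 18 (37.5%, beside 23.3%).

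A difference of at least 2-fold in rank without overlap was found at 5 genes. Psmd8 was the only one toward G1E-ER4 (2.08% of 48, beside 8.08% of all genes tested). Toward G1E there were 4, namely Psma3, Psmb4, Psme1 and Psmc3ip (8.33%, beside 6.29%). Both shares are small counts and neither stands far from the background. Among promoters only, 1 gene (beside 3.51%) and 3 genes (beside 3.6%) passed, Psmb4 no longer being among them.

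Psma3, an alpha ring subunit, had the largest difference of the 5, 3.86-fold. It stood at 80.7 and 92.6 in G1E-ER4, against 96.6 and 97.2 in G1E, with a log2 ratio of -1.95 and of -1.26 without G1E-ER4 list 1. Its peak was 526 bp wide in G1E-ER4 list 1 and 1198 to 1444 bp in the others. It lies on chromosome 12 (chr12:72075608-72097334), as do Psma6 and Psmc1, and on that chromosome 41.0% of all genes tested were higher in both G1E lists. The part of that imbalance in the values of Psma3 and Psmc1 was not tested. Psmb4, a structural beta ring subunit on chromosome 3, stood at 78.3 and 92.1 in G1E-ER4, against 94.5 and 93.2 in G1E, a 2.13-fold difference. On chromosome 3, 27.9% of all genes tested were higher in both G1E-ER4 lists and 3.72% in both G1E lists. Psmb4 thus differed in the direction opposite to that imbalance. The log2 ratio of Psmb4 was -1.09, and -0.36 without G1E-ER4 list 1. Psmc3ip stood at 95.0 and 97.3 against 98.5 and 98.7, which is 2.61-fold, with a log2 ratio of -1.38 and of -0.93 without that list. The promoters of Psma3 (chr12:72075508-72075607, plus strand) and Psmb4 (chr3:94690884-94690983, minus strand) are shown for comparison with the others. An NRF1 match (GCGC and TGCGC with any 1 base between), on the other strand, is in capitals in the first, and no searched motif was found in the second.
Psma3: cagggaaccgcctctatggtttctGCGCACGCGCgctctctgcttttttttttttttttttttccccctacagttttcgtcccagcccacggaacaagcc
Psmb4: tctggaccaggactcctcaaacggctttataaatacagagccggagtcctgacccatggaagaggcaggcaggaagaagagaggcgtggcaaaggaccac

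**Figure D3:**
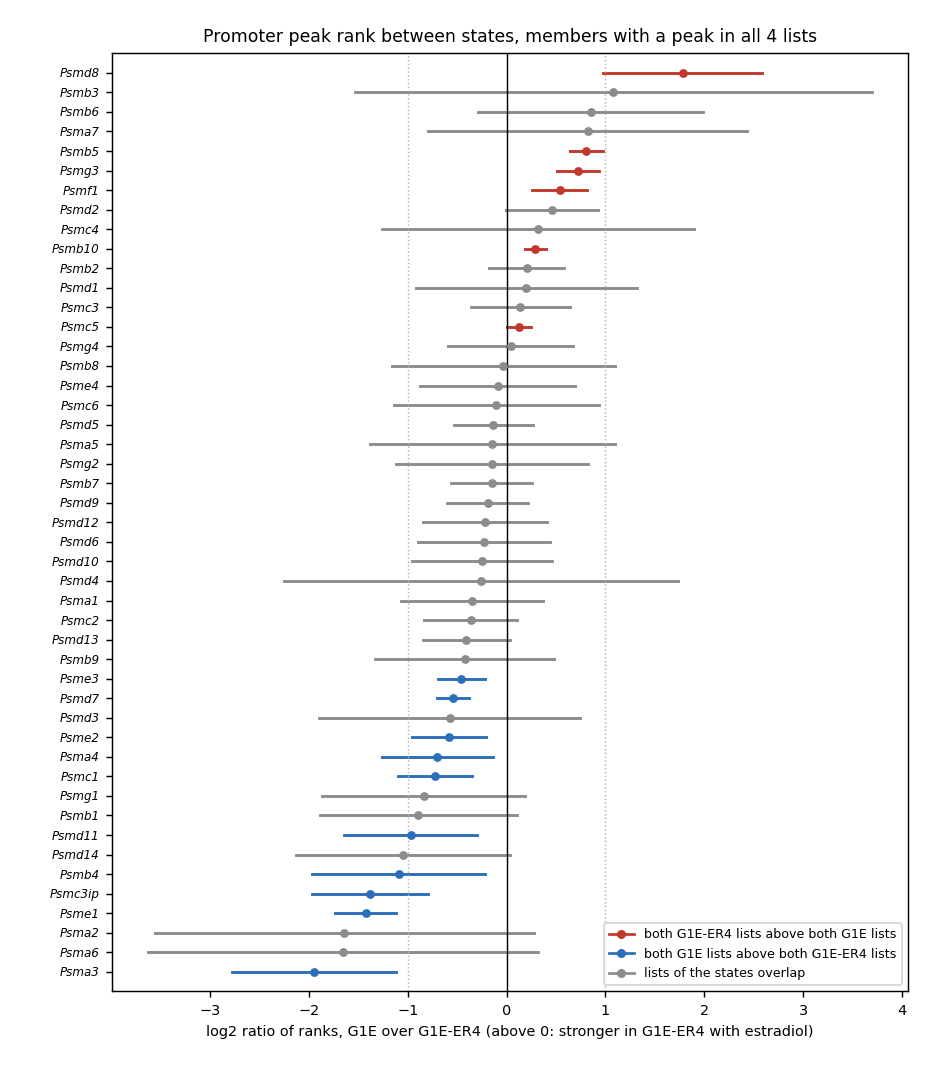
log2 ratio of peak ranks, G1E over G1E-ER4, for the 47 genes with a promoter peak in all 4 lists (points: ratio of geometric mean ranks; lines: range over the 4 pairs of a G1E and a G1E-ER4 list; dotted lines: 2-fold). Red and blue lines do not cross 0, and Psmd8 at the top and Psma3 at the bottom have the largest ratios of these.

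The median over the 47 genes of the difference between states, G1E-ER4 minus G1E, was -1.36 percentile points, beside -0.66 over all genes with a peak in all 4 lists, and 34 of the 47 (72.3%) were lower in G1E-ER4, beside 60.2%. The sign of the median rested on G1E-ER4 list 1. Without that list it was 0.27 points for the proteasome genes and 0.86 for all genes. The typical gap between the 2 G1E-ER4 lists (median 3.72 points) was wider than that between the states (2.08), and that between the 2 G1E lists was 1.32. Over all genes with a peak in all 4 lists these medians were 4.60, 2.26 and 1.76. Over those genes the rank correlation was 0.61 between the 2 G1E-ER4 lists and 0.88 between the 2 G1E lists. G1E-ER4 list 2 correlated with G1E lists 1 and 2 at 0.87 and 0.83, above its correlation with G1E-ER4 list 1. The lists thus did not group by state. The difference between the states exceeded both gaps within a state at 10 of 47 genes, beside 1796 of all 11450.

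Some proteasome genes share their promoter with a neighbour. An opposite-strand start of another gene lay within 1 kb upstream at 10 of 50 (20.0%), beside 9.56% of all genes. The partners were Mrpl32 for Psma2, AY074887 for Psma4, Ss18l1 for Psma7, Tap1 for Psmb9, Dnajc2 for Psmc2, Ftsj3 for Psmc5, Atg4a for Psmd10, Sirt3 for Psmd13, Rnf31 for Psme2 and Cep76 for Psmg2. At Psmd13 the summit was nearer to the Sirt3 start in all 4 lists. The strongest peak had the gene's own start as the nearest protein-coding start in all 4 lists at 39 of 47 genes. The others were Psma2, Psmb1, Psmb9, Psmc2, Psmd10, Psmd13, Psme2 and Psmg2. Psmb1, Psmd10, Psme2 and Psmg2 had their own start nearest in 3 of 4 lists, Psma2, Psmb9 and Psmc2 in 1, and Psmd13 in none. How often the own start is nearest over all genes was not computed.

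Summits lay close to starts. The median distance to the nearest start of the gene was 49 and 40 bp in the G1E-ER4 lists and 42 bp in each G1E list, and in all 4 lists the summit was within 150 bp at 35 of 47 genes. At some genes G1E-ER4 list 1 alone put it elsewhere: at Psmb1 1533 bp upstream near the start of Tbp, at Psmc2 1428 bp downstream, and at Psmb5 290 bp upstream. Summit distances were not computed over all genes, so closeness to the start is not shown to be particular to proteasome genes.

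**Figure D4:**
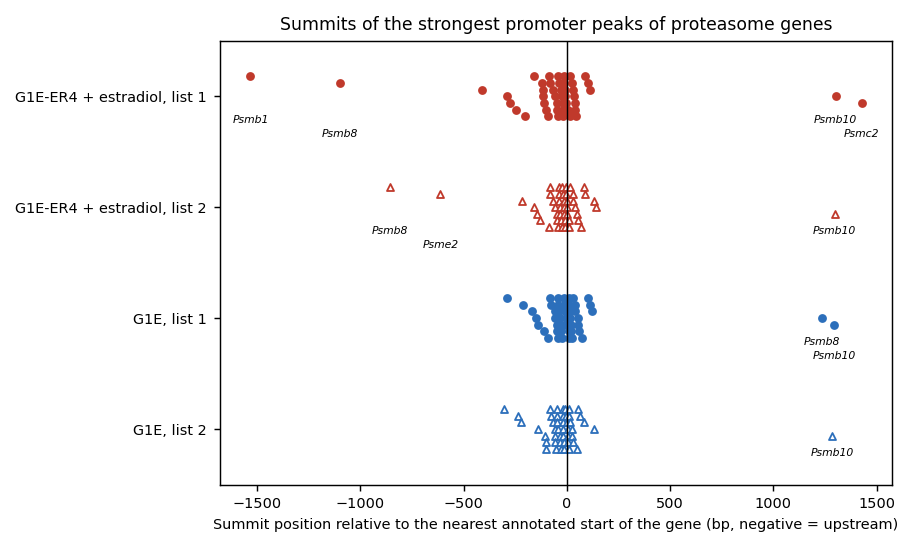
Position of the summit of the strongest promoter peak relative to the nearest annotated start of the gene (horizontal axis in bp, negative upstream) in the 4 lists, for the 47 genes with a peak in every list. Genes with the most distant summits are named, and Psmb10 is the only one so placed in all 4 lists.

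Peaks at proteasome promoters were a little narrower than at other open promoters. Their median width was 1425 and 1783 bp for G1E-ER4, and 1405 and 2207 bp for G1E, beside 1584, 2086, 1617 and 2324 bp over all genes with a peak in all 4 lists. Widths moved with the list more than with the state, as list 2 was the wider in both states. The widest was the Psmc2 peak of 7192 bp in G1E-ER4 list 1, and the narrowest that of Psmd10, 372 bp in the same list. Immune genes had a median of 2143, 2296, 2416 and 2389 bp, in the same order of lists.

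**Figure D5:**
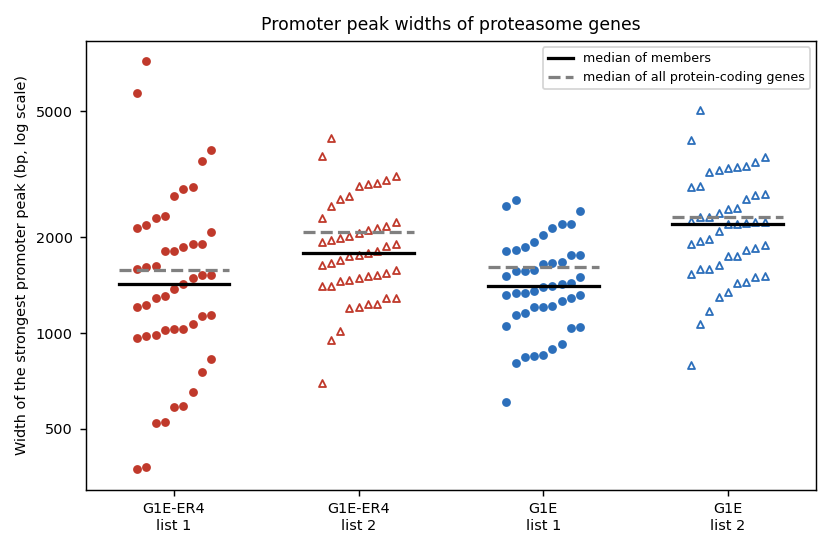
Width of the strongest promoter peak in bp (log axis) for the 47 genes with a peak in every list, by list. Black bars are medians of these genes and dashed grey bars medians of all 11450 protein-coding genes with a peak in all 4 lists; the black bar is below the grey one in each list.

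The promoters were CpG-rich. Over the bases from 250 before to 50 after the start nearest to the summits, the median GC content was 57.7% (45.7 to 75%) and the ratio of observed to expected CpG 0.79, beside 60.7% and 0.73 over the 16089 genes with a promoter peak. Psmb10 (45.7% GC) and Psmb11 had CpG ratios of 0.19 and 0.17, the lowest of the 48, so the Psmb10 start lies in CpG-poor sequence.

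Motifs were searched on both strands in these windows, as letters only. The ARE core TGACNNNGC was found at 8 of 48 genes (16.7%), beside 14.0% of the 16089 promoters. NRF1 matches were found at 7 (14.6%, beside 8.79%), CCAAT of NFY at 18 (37.5%, beside 37.0%) and the SP box GGGCGG at 28 (58.3%, beside 61.5%). The ETS motif CCGGAAG was found at 17 (35.4%, beside 15.2%), and at 19 within 100 bases of the summit (39.6%, beside 13.5%). GATA matches (AGATAA) were found at 8 (16.7%, beside 6.5%), the E-box CACGTG at 6 (12.5%, beside 9.68%), YY1 (AAGATGGC) at 5 (10.4%, beside 4.14%), the interferon element (TTTC, any 2 bases, TTTC) at 6 (12.5%, beside 2.99%) and the GAS element TTCNNNGAA at 4 (8.33%, beside 6.36%). A match is not a bound site, and these shares were not tested. The ETS genes included 11 of the 17 cap genes and 1 of the 14 ring genes, Psma6. Within 100 bases of the summit the interferon element was at 5 genes (10.4%, beside 1.3%), namely Psmb3, Psmd7, Psmg4, Psme1 and Psme2. Neither window held it at an immune subunit, and Psmb8 held GAS and GATA matches. RefSeq starts (GRCm38.p6), located in mm9 by sequence, lay within 150 bp of the start used for 40 of the 41 genes with a record. The exception was Psmb8, whose RefSeq start lies 474 bp further in.

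The 8 ARE core matches are printed with 10 bases on each side, on the gene's strand (minus for Psmb5 and Psmd7, plus for the others), to show how the variable bases differ. Capitals mark the match, and those ending in TCA are matches on the other strand. Their coordinates are chr4:126354863-126354891, chr14:55236861-55236889, chr11:70338840-70338868, chr14:45949262-45949290, chr11:107340585-107340613, chr7:148068387-148068415, chr8:110112472-110112500 and chr5:123678158-123678186 in the order shown.
Psmb2: gccgcgccagTGACTGGGCcgtcgcgcgt
Psmb5: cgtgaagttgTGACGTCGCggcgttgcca
Psmb6: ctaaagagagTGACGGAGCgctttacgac
Psmc6: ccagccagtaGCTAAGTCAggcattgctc
Psmd12: gagatgttctGCTGTGTCAcatttgcccc
Psmd13: ccttcttacaGCAGAGTCAgagctccggg
Psmd7: tcaatgccaaGCTTCGTCAatagcctaag
Psmd9: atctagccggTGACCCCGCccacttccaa
Of the 3 catalytic genes, Psmb5 and Psmb6 held a match and Psmb7 did not. Of these 8 genes, 1 was higher in both G1E-ER4 lists (Psmb5, beside 15.2% of all genes tested). Another 1 was higher in both G1E lists (Psmd7, beside 11.7%), and 6 overlapped. With 8 genes these counts cannot be told apart from the shares over all genes.

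Other genes of the ubiquitin and proteasome pathway were as open. Of 32 listed genes 31 were in the annotation under their symbol, and all 31 had a promoter peak in all 4 lists. Nfe2l1, the activator of proteasome genes, stood at 97.1 and 98.4 in G1E-ER4, against 98.4 and 99.7 in G1E, with overlap. Its relative Nfe2l2 stood at 85.8 and 97.1 against 96.8 and 97.6, and the erythroid factor Nfe2 at 97.9 and 96.9 against 95.5 and 97.8. Adrm1, a ubiquitin receptor of the cap that the symbol rule does not take in, was very high in every list, at 99.6 and 99.9 against 99.8 and 99.2. The core assembly factor Pomp was at 98.2 and 96.3 against 98.4 and 98.6, higher in both G1E lists. Tap2 was at 94.9 and 92.2 against 91.8 and 91.2, higher in both G1E-ER4 lists. In all, 4 of the 31 were higher in both G1E-ER4 lists (beside 15.2% of all genes) and 6 in both G1E lists (beside 11.7%). Among those past 2-fold were Ubqln4 toward G1E-ER4 (2.43-fold), and toward G1E the protease gene Ddi2 (2.73), Ufd1l (2.46) and the deubiquitinase gene Usp14 (2.07). These folds depended on single lists. Without G1E-ER4 list 1 the log2 ratio of ranks was 0.11 for Ubqln4 and -0.15 for Usp14, without G1E list 2 it was -0.47 for Ufd1l, and without G1E list 1 it was -0.92 for Ddi2. Pomp moved to -0.27 without G1E-ER4 list 2, and Tap2 to 0.13 without G1E-ER4 list 1.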

How the data were processed

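DNase-seq peak lists were analysed for 1 G1E-ER4 sample and 1 G1E sample, with 2 lists each, and the label of the cell gave the group. According to the series' design text, 20-base tags were mapped to mm9 with Bowtie, tags with several matches being kept at the best place, lanes were combined per replicate, and peaks were taken from an F-seq density by a gamma fit, list by list. The versions and the p-value limit were not given in the sources used here. The deposited signal of each peak is that F-seq density, and it was used only to rank peaks within a list. Another deposited column gives the offset of the summit.

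Starts of protein-coding transcripts came from GENCODE vM1 on mm9, after merging overlapping models of 1 symbol. All peaks lay within that genome's chromosomes. Differences between states are counted as lists that do not overlap, and as a ratio of geometric mean ranks of at least 2. Scripts used Python 3.11.15 and pandas 2.3.3. In a simulation of 10000 genes, presence was recovered at 100% and 86% of 200 shifted genes were called. Its lists were given little noise and large shifts, whereas the 2 G1E-ER4 lists had a rank correlation of 0.61 over 11450 genes. The simulation therefore checks the code and does not show how the calls perform on these lists. Named genes are the immune, tissue-restricted, catalytic and 11S genes, those past 2-fold, the 3 highest and 3 lowest, and the extremes of each role. Other genes named for states that did not overlap, for distant summits or for 1 outlying list, and the chromosome shares, were picked out after the values were seen. The members and lists were chosen with earlier results of these data known. Alternatives were other windows, summits, starts, rank scales, folds, and leaving out each list. Some values of the marker and pathway lists are not reported here.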

Additional observations from a re-analysis of the deposited data

How the results depend on the processing

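Of the values under alternatives of results that answer a comparison, 86 stayed within the limits used (1.5 times for counts, 1 SD between lists otherwise) and 15 did not. Leaving out each list in turn gave 9 to 20 genes higher in G1E-ER4, 12 to 30 higher in G1E and 6 to 17 past 2-fold, as 3 lists overlap less readily. Past 2-fold were 6 without G1E-ER4 list 1 (12.5%, beside 26.5% of all genes), 17 without G1E-ER4 list 2 (35.4%, beside 43.3%), 9 without G1E list 1 (18.8%, beside 25.8%) and 10 without G1E list 2 (20.8%, beside 18.8%). The median difference then ran from -2.50 to 0.27 and reversed without G1E-ER4 list 1. With a 1.5-fold limit 10 genes passed (20.8%, beside 21.9%) in place of 5 (10.4%, beside 14.4%). Ranked among promoters only, the median percentile was 61.2, since the scale is another, and 8 and 11 genes did not overlap. Without chromosomes 3, 7 and 12, a choice made after seeing the data, 2 genes passed 2-fold (Psme1 and Psmc3ip; 5.26%, beside 11.6%), and 5 of 38 were higher in G1E-ER4 (beside 13.0%) and 7 in G1E (beside 11.3%). Around the summit, the E-box was at 3 genes (6.25%, beside 6.91% of all promoters) and GAS at 2 (4.17%, beside 4.11%). In 186 alternative values of the named genes without overlap none changed sign. Leaving out a list cannot change the sign of a gene whose states do not overlap. Some other alternatives leave a gene's value as it was, so the absence of sign changes was largely fixed in advance. Of the overlapping ones, Psmb8 went from -0.03 to 0.83 without G1E list 2 and Psmb9 from -0.42 to 0.09 without G1E-ER4 list 2 (log2 ratio of ranks). No paired analysis was possible because each state has 1 sample. Depth is unknown, and the fixed list length limits what weak peaks can show.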

Other observations

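Inside the 50 genes, more than 1 kb from every protein-coding start, 136 sites were found in 38 genes after merging overlapping peaks of the lists. Of these, 86 were in a single list and 8 in all 4 lists. The strongest site of all 4 lists lay in Psmc3 (chr2:90900143-90902729), ranking at percentile 95.7 and 90.4 in G1E-ER4, against 88.0 and 94.7 in G1E. Another, in Psma5 (chr3:108061826-108062762), stood at 87.4 and 87.3 against 65.3 and 82.5. A site in Psma6 on chromosome 12 (chr12:56486769-56491471) stood at 26.5 and 71.8 against 82.9 and 91.9. In Psmd9 a pair of sites was in all 4 lists, of which chr5:123695032-123696332 was at 88.1 and 80.2 against 77.2 and 69.6.

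There were 6 such sites marked in both lists of G1E-ER4 and in neither of G1E, 1 each in Psmc3, Psmd11, Psmb8, Psmd1, Psmb7 and Psmd9. The Psmd9 site (chr5:123697624-123699558) was the strongest, at 69.4 and 45.9, and the Psmb8 site (chr17:34337529-34338396) stood at 24.7 and 18.4. Both G1E lists alone marked 3, of which 2 lie in Psmb3 and 1 in Psmd7. These sites of 1 state ranged from percentile 4.2 to 69.4, and their number was not set against other genes.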
